A study of Mus musculus with 4 samples.

Results

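The DNA repair and damage checkpoint genes described here are 52 genes chosen by name from the textbook repair pathways, by a rule that uses no measured difference between groups. All 52 are among the 21959 genes that the deposited tables list, and 49 of them reached 20 or more counts in at least 1 library. The other 3, Palb2, Xrcc2 and Lig4, had at most 16, 13 and 6 counts. The 52 genes were sorted into 9 groups by role: the kinases and checkpoint, chromatin factors at breaks, end processing and homologous recombination, end joining, replication protein A, the Fanconi anemia pathway, mismatch repair, nucleotide excision repair, and base excision with single-strand break repair.

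RNA of dendritic cells (DCs, which present antigen) and of CD3+ T cells was sequenced from MC38 tumours, grown in mice from a mouse colon carcinoma line. The mice received PBS, a saline vehicle, or X-Ray+O-IMDQ, radiotherapy together with a prodrug that radiation activates, and cells were taken 72 h after the second treatment. The 4 groups are therefore PBS DCs, treated DCs, PBS T cells and treated T cells, each with 1 library. The design asks how the treatment alters gene expression in tumour DCs and T cells. The labels give neither the strain, genotype, age or number of mice, nor the radiation dose, nor any group given X-ray or prodrug alone, so the contributions of the 2 agents cannot be told apart.

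Ionizing radiation breaks DNA strands and damages bases. The kinases ATM and ATR sense breaks and exposed single-stranded DNA and signal through CHEK2 and CHEK1, and histone H2AX at the break is phosphorylated and recruits MDC1, RNF8, RNF168 and 53BP1. Breaks are then joined directly by the Ku and DNA-PKcs machinery at any time of the cell cycle, or copied from the sister chromatid by homologous recombination, with BRCA1 and BRCA2, in cells that replicate. Much of this control acts on the proteins by phosphorylation and ubiquitin, which RNA levels do not show.

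Since every group has a single library matched to a sample, each comparison below is between libraries, with no replicate error and no p-value. Ratios of counts scaled by TMM (trimmed mean of M-values) are given as log2 values with 95% exact binomial intervals in brackets. These intervals, and the floor of 3 counts used for a library at 0, cover counting error only. A fold given as "at least" is the ratio against that floor. A gene was compared where either library had at least 20 counts, and was called higher or lower where the ratio was at least 2-fold and the interval excluded no change. In bulk RNA, fewer cells of a type and less RNA per cell cannot be told apart.

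The libraries differed in depth and in the number of genes they detected. Total counts ran from 14056428 in treated DCs to 23797357 in PBS DCs, and the 2 T cell libraries held 18649824 (PBS) and 18463944 (treated). Genes with 20 or more counts numbered 9502 in PBS DCs, 7792 in treated DCs, 10399 in PBS T cells and 9614 in treated T cells. The 6 T cell markers summed to 10098.5 and 10623 CPM (counts scaled to the library total) in PBS and treated T cells and to 92.1 and 77.6 CPM in PBS and treated DCs. Cd3e had 4266 and 4447 counts in T cells and 0 in both DC libraries, but other T cell markers were present in DCs, with Cd3d at 434 and 812 counts, Cd3g at 576 and 1, Cd2 at 574 and 0, Lck at 607 and 0, and Cd5 at 1 and 278. Of the 9 conventional DC markers, 3 were higher, 4 lower and 2 neither in treated DCs. H2-Ab1 (1170633 and 82819 counts) and Cd74 (254798 and 26323) carried most of their sum, which was 60499 CPM in PBS DCs, 8128 CPM in treated DCs and at most 382 CPM in T cells. Cd209a (9441 and 329 counts) and Batf3 (479 and 0) were also lower, and Clec9a (154 and 952), Flt3 (16 and 69) and Zbtb46 (9 and 57) were higher. Of the 7 macrophage markers, C1qa, C1qb, C1qc and Apoe were lower in treated DCs, and Adgre1, Csf1r and Mrc1 were not called. Their sum was 5797 CPM with PBS and 1372 CPM with treatment. The 4 natural killer cell markers summed to 92.7 and 321 CPM in DCs. Klrd1 had 2206 and 4116 counts, Gzmb 0 and 391, Klrb1c 0 and 1, and Ncr1 0 in both. The 3 B cell markers were at 0 in both DC libraries. The 4 epithelial markers summed to 37.0 and 55.2 CPM, with Epcam at 219 and 0 counts, Cdh1 at 662 and 776, and Krt8 and Krt18 at 0. The part of cell makeup in the DC results was not tested.

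**Figure D1:**
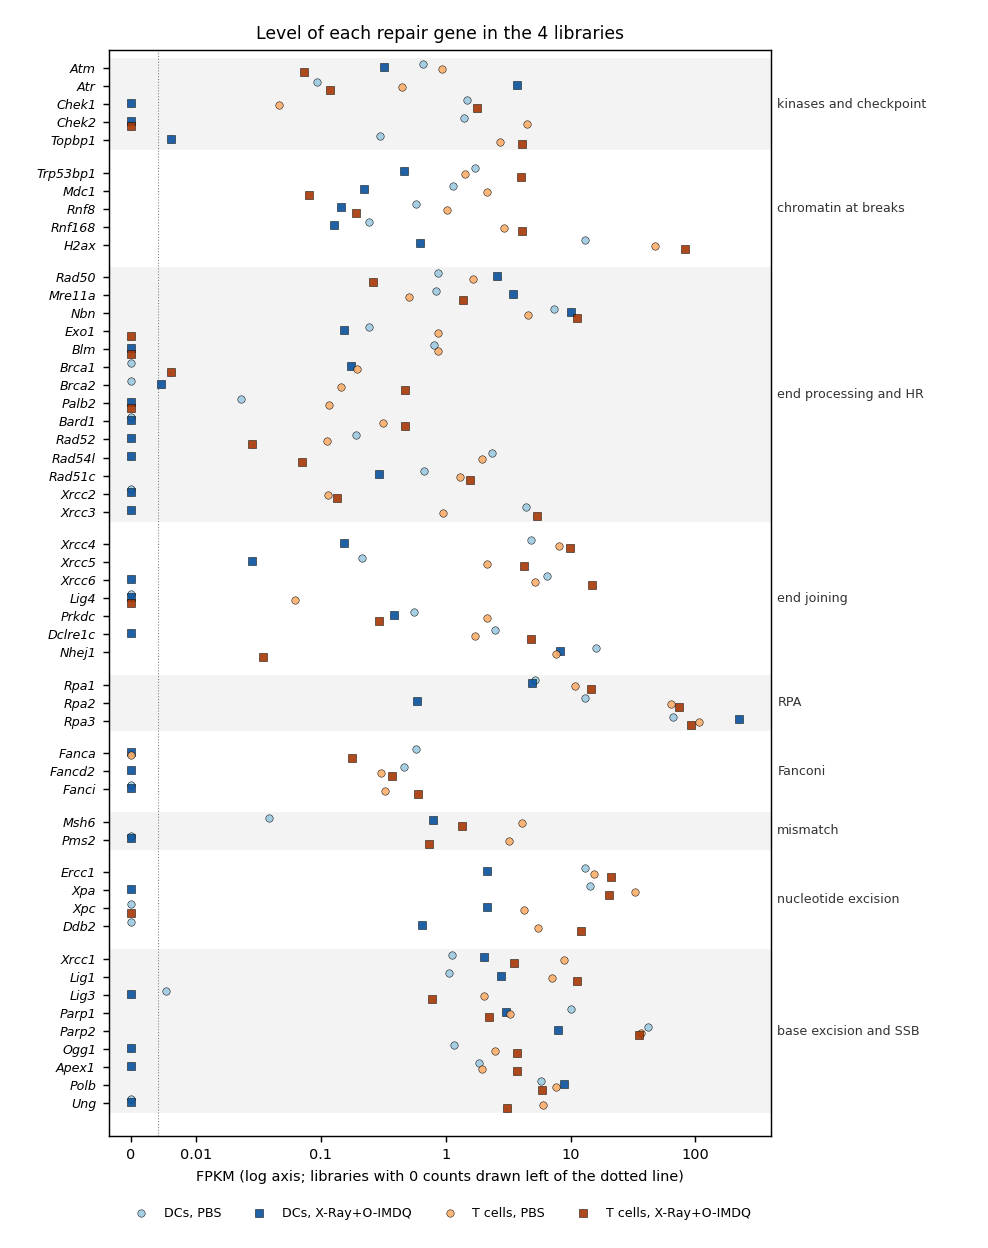
FPKM (reads scaled to gene length and library total, log axis) of the 52 repair genes in the 4 libraries, 1 symbol per library, with libraries at 0 counts left of the dotted line and symbols of 1 gene offset vertically. Treated DCs (dark blue squares) hold 21 of the 52 genes at 0, beside 12196 of all 21959 genes. Rpa3, Rpa2, H2ax and Parp2 lie farthest to the right on average.

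Repair genes were detected more widely in T cells than in DCs. Of the 52 genes, 1 had 0 counts in PBS T cells, 6 in treated T cells, 10 in PBS DCs and 21 in treated DCs. Of all 21959 genes, 9908, 11191, 11168 and 12196 had 0 counts in the same order. Treated DCs also had the fewest total counts. The summed level of the 52 genes was 1267 CPM in PBS T cells and 1318 CPM in treated T cells, against 724 CPM in PBS DCs and 595 CPM in treated DCs. Their median FPKM, a level per gene length, was 2.14, 1.46, 0.82 and 0.15 in the same order. CPM and FPKM are scaled to library totals and not by TMM. The TMM factors over the 4 libraries were 1.204, 1.227, 0.835 and 0.810 in that order, so TMM scaling would lower the T cell sums and raise the DC sums. The plot of levels by library shows the low median of treated DCs as a shift of their symbols to the left.

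On the FPKM scale, the most abundant member by its mean over the libraries was Rpa3, a subunit of the complex that coats single-stranded DNA, at 66.3 in PBS DCs, 223 in treated DCs, 107 in PBS T cells and 91.4 in treated T cells. It was high in every library. Rpa2, its partner subunit, stood at 13.1, 0.594, 63.8 and 73.6 FPKM in that order, and H2ax at 13.1, 0.617, 47.2 and 82.1 FPKM. Both were low in treated DCs only. Parp2, which makes poly(ADP-ribose) at strand breaks, stood at 42.0, 7.92, 36.5 and 35.5 FPKM, so treated DCs again had the lowest level.

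Between treated and PBS DCs, 42 members could be compared, and 24 were lower, 9 higher and 9 neither in the treated library. Of all 10316 genes compared, 41.8% were called lower and 30.2% higher, or 72% in either direction, so a call in DCs was common for any gene. The median log2 ratio of the members was -1.87, beside -0.36 for all genes, and 30 of the 42 lay below 0. Of these members 13 had 0 counts in treated DCs and 3 had 0 counts in PBS DCs. Of the 10316 genes compared, 1525 and 387 were at 0 in the same libraries. Where 20 counts were required in both DC libraries, 19 members could be compared, with 5 higher and 7 lower, beside 32.9% and 26.2% of all genes. Between the T cell libraries, 48 members could be compared, and 18 were lower, 10 higher and 20 neither after treatment. The background over 11058 genes was 25.4% lower and 18.3% higher, or 43.7% in either direction. The median log2 ratio of the members in T cells was 0.21, beside -0.07 for all genes. Its sign was not stable, being -0.16 at a minimum of 100 counts in either library, and the mean over members was -0.86. The median size of the ratio regardless of sign was 1.38, beside 0.83 for all genes.

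The share of genes called depended on the count. Among all genes with 100 to 299 counts in the higher T cell library, 63.1% were called, and 15 of 18 members. With 1000 or more counts there, 17.8% of all genes and 2 of 9 members were called. In DCs the same shares were 80.1% of all genes with 11 of 14 members, and 62.2% with 4 of 4 members. Reading 0 in the treated library was also common at moderate counts: of genes with 300 to 999 counts in PBS DCs, 11.4% had 0 counts in treated DCs, and 4 of 13 members did. In T cells that share was 1.49%, with 1 of 15 members.

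**Figure D2:**
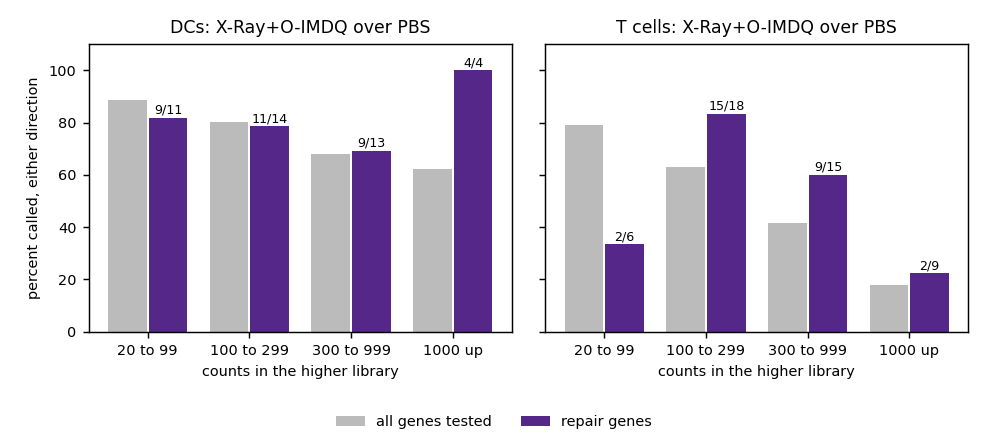
Percent of genes called between the treated and PBS library (y axis, from 0) by the count in the higher library (x axis), for all genes compared and for the repair genes, in DCs and in T cells. For all genes the share falls from 88.7% to 62.2% in DCs and from 79.1% to 17.8% in T cells as counts increase.

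Of the 5 kinase and checkpoint genes, 1 was higher and 3 were lower in the treated library of each cell type, but the higher gene was Atr in DCs and Chek1 in T cells. Of all genes, 30.2% were higher and 41.8% lower in DCs, and 18.3% and 25.4% in T cells. Atr, the kinase that senses exposed single-stranded DNA, had 52 counts in PBS DCs, 1235 in treated DCs, 197 in PBS T cells and 52 in treated T cells. Treated DCs were thus the high library and PBS T cells the next. The ratio was 41.9-fold higher in treated DCs (log2 5.39 [4.99, 5.82]) and lower in treated T cells (log2 -1.93 [-2.40, -1.49]). Chek1, the checkpoint kinase downstream of ATR, had 164, 0, 4 and 151 counts in the same order. It was high in PBS DCs and treated T cells, the reverse of Atr, at least 31.0-fold lower in treated DCs and 37.4-fold higher in treated T cells (log2 5.23 [3.84, 7.12]). Chek2, the kinase downstream of ATM, had 100 and 249 counts in the PBS libraries and 0 in both treated libraries, at least 18.9-fold lower in DCs and at least 83.7-fold lower in T cells. Atm itself had 163 and 47 counts in the DC libraries (log2 -0.97 [-1.48, -0.50]), not called on TMM-scaled counts but past the fold on library totals (log2 -1.03), and 181 and 14 in the T cell libraries (log2 -3.71 [-4.61, -2.92]). Topbp1, which activates ATR, had 79 counts and 1 count in PBS and treated DCs (log2 -5.48 [-10.81, -2.96]) and 571 and 852 in PBS and treated T cells, where the ratio of 0.56 was not called.

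Chromatin factors at breaks were lower in treated DCs: 4 of the 5 were called lower and none higher, with Rnf168 uncalled at 26 and 8 counts. Of all genes, 41.8% were lower and 30.2% higher in DCs. Trp53bp1 (53BP1, which shields ends from resection) had 578 counts in PBS DCs, 93 in treated DCs, 379 in PBS T cells and 1044 in treated T cells. It was 3.52-fold lower in treated DCs and 2.73-fold higher in treated T cells. H2ax had 433, 12, 1219 and 2097 counts in that order, 20.5-fold lower in treated DCs and 1.70-fold higher, below the fold needed for a call, in treated T cells. The scaffold gene Mdc1 and the ubiquitin ligase gene Rnf8 were low in both treated libraries. Mdc1 had 201 and 23 counts in DCs and 297 and 11 in T cells (log2 -2.31 and -4.77), and Rnf8 had 161 and 24 in DCs and 223 and 41 in T cells (log2 -1.93 and -2.46).

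**Figure D3:**
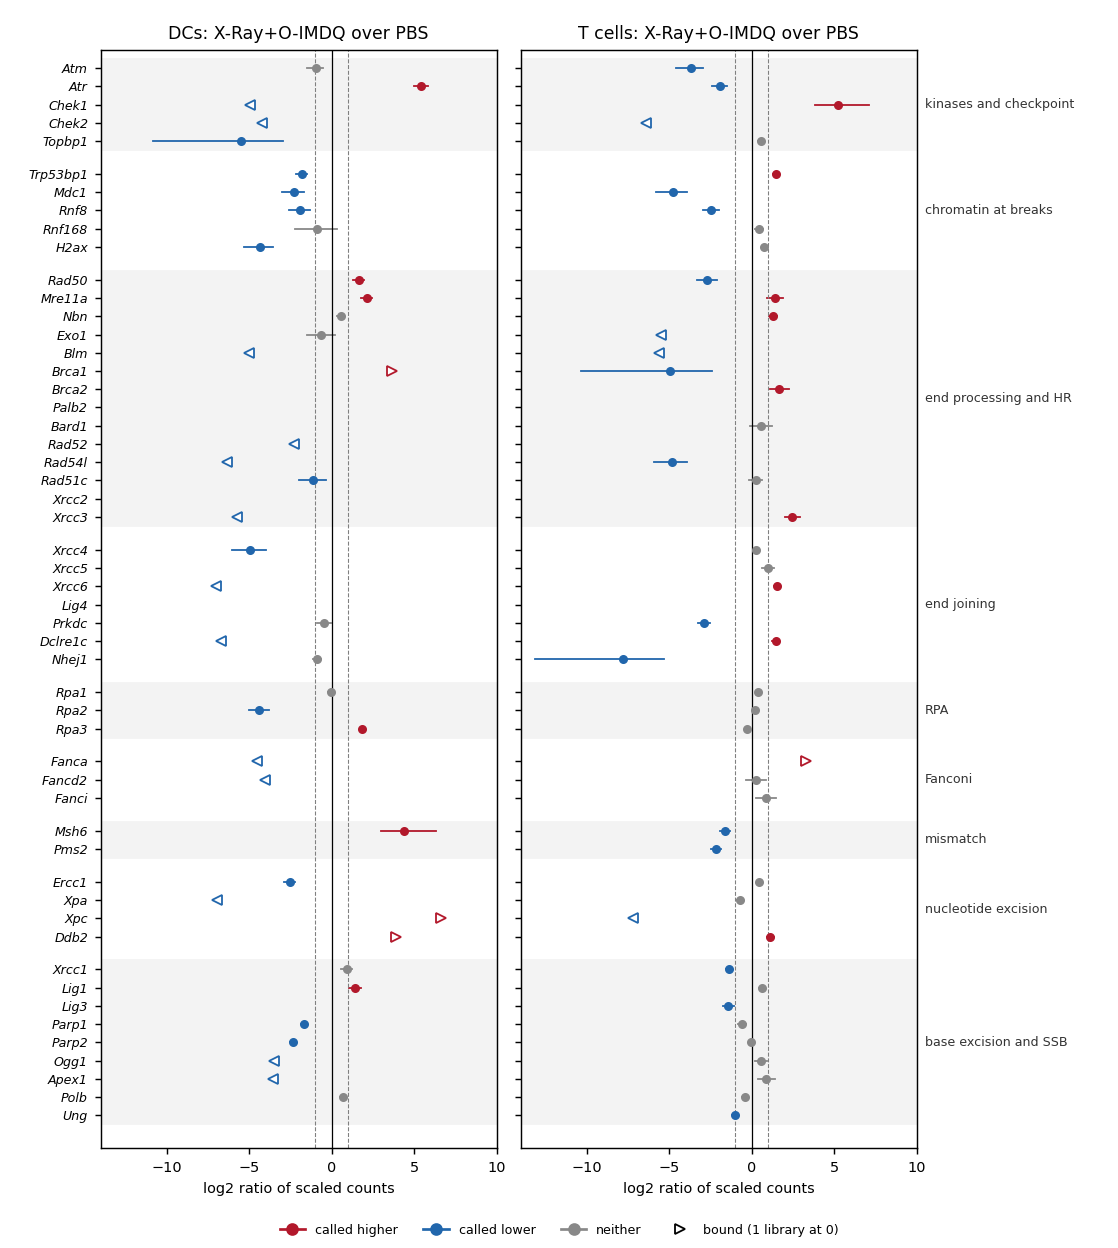
Log2 ratio of treated over PBS counts for each repair gene compared in DCs (left) and T cells (right), with 95% exact binomial intervals for counting error and with genes at 0 in 1 library drawn at the bound from 3 counts. Atr, Rad50, Brca1, Msh6 and Xpc lie to the right of 0 in DCs and to the left in T cells, and Chek1, Trp53bp1, Xrcc3, Xrcc6, Dclre1c and Fanca the other way.

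End processing and homologous recombination was mixed in both cell types, with 3 members higher and 5 lower of 10 in DCs, and 4 higher and 5 lower of 11 in T cells. The 30% and 50% in DCs lay near the 30.2% and 41.8% of all genes. In T cells 36.4% and 45.5% stood beside 18.3% and 25.4% of all genes. The MRN complex, which tethers and trims ends, did not differ as a unit. Its nuclease gene Mre11a had 117 counts in PBS DCs, 286 in treated DCs, 56 in PBS T cells and 150 in treated T cells, 4.31-fold higher in treated DCs and 2.65-fold higher in treated T cells. Mre11a and Ddb2 were the only members called higher in both, and the share of all genes called higher in both was not computed. Nbn, the subunit that binds ATM, had 441, 362, 214 and 529 counts, uncalled in DCs and 2.45-fold higher in treated T cells. Rad50, the structural subunit, had 110, 193, 165 and 26 counts, higher in treated DCs (log2 1.63 [1.29, 1.98]) and lower in treated T cells (log2 -2.68 [-3.34, -2.08]).

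Blm, a helicase that resolves recombination intermediates, had 168 counts in PBS DCs and 143 in PBS T cells and 0 in both treated libraries, at least 31.7-fold and 48.1-fold lower. Exo1, the long-range resection nuclease, had 136 counts in PBS T cells and 0 in treated T cells, at least 45.7-fold lower, and 49 and 18 in DCs, which was not called. Rad54l, a motor protein of strand exchange, had 431 and 0 counts in DCs, at least 81.4-fold lower, and 283 and 10 in T cells (log2 -4.84 [-5.91, -3.94]). Together with Chek2, Mdc1 and Rnf8, Blm and Rad54l made up the 5 members called lower in both cell types. Of all genes, 41.8% were called lower in DCs and 25.4% in T cells. The share of all genes called lower in both was not computed.

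Genes of the BRCA complexes were near the detection limit in DCs. Brca1 had 0 counts in PBS DCs and 21 in treated DCs, at least 12.4-fold higher, and 31 counts in PBS T cells and 1 in treated T cells (log2 -4.97 [-10.32, -2.38]). Brca2, a mediator of homologous recombination, had 0 counts in PBS DCs and 1 in treated DCs, too few to compare, and 37 and 119 in T cells, 3.19-fold higher after treatment. The BRCA1 partner Bard1 was at 0 in both DC libraries and had 33 and 49 counts in T cells, not called. Xrcc3, another recombination gene, had 285 counts in PBS DCs, 0 in treated DCs, 49 in PBS T cells and 273 in treated T cells. It was at least 53.8-fold lower in treated DCs and 5.52-fold higher in treated T cells. Rad51c had 70 and 18 counts in the DC libraries (log2 -1.14 [-1.98, -0.38]), a call that did not hold under every scaling, and 106 and 126 in T cells, uncalled. Rad52, which anneals strands, had 26 and 0 counts in DCs, at least 4.91-fold lower, and too few in T cells to compare.

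Within end joining, no member was higher in treated DCs and 3 of 5 were lower, beside 30.2% and 41.8% of all genes. Xrcc6 (Ku70, which binds the broken end) had 685 counts in PBS DCs, 0 in treated DCs, 431 in PBS T cells and 1234 in treated T cells. It was at least 129-fold lower in treated DCs and 2.84-fold higher in treated T cells. Its partner Xrcc5 (Ku80) stood at 0.214 FPKM in PBS DCs, where Xrcc6 stood at 6.43 FPKM. It had 13 counts and 1 count in DCs, too few to compare, and had 102 and 201 in T cells, a 1.95-fold difference just short of a call. Dclre1c (Artemis, the nuclease that opens hairpin ends) followed the same order as Xrcc6, with 553, 0, 300 and 828 counts. It was at least 104-fold lower in treated DCs and 2.74-fold higher in treated T cells.

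The other end joining genes did not share that pattern. Xrcc4, the ligase cofactor, had 482 and 9 counts in DCs (log2 -4.92 [-6.06, -3.99]) and 640 and 775 in T cells, not called. Prkdc, the catalytic subunit of DNA-PK, had 174 and 71 counts in DCs, not called, and 523 and 71 in T cells (log2 -2.89 [-3.27, -2.53]). Nhej1 (XLF, which bridges the ends) had 600 and 184 counts in DCs, also not called, and 224 counts and 1 count in T cells (log2 -7.82 [-13.13, -5.33]). Thus in T cells the 2 genes called higher were Xrcc6 and Dclre1c and the 2 called lower were Prkdc and Nhej1. Of all genes compared in T cells, 18.3% were higher and 25.4% lower. The summed level of the group was 105 CPM in PBS DCs, 18.9 CPM in treated DCs, 119 CPM in PBS T cells and 168 CPM in treated T cells.

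**Figure D4:**
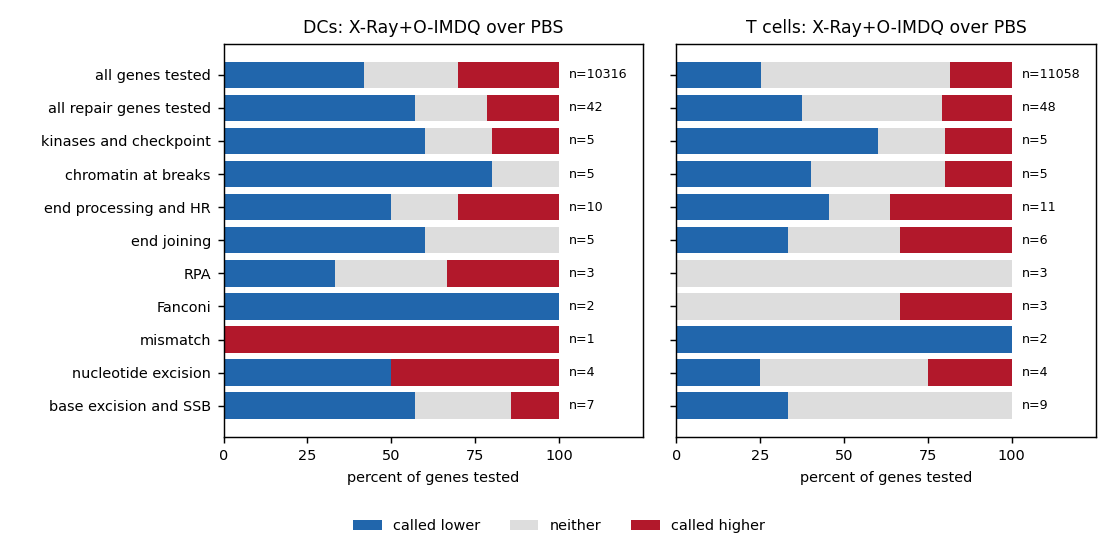
Share of the compared genes of each repair group, and of all genes, that were higher, lower or neither in the treated library (x axis, percent), in DCs and T cells, with the number compared beside each bar. Chromatin factors, end joining and the Fanconi group have no higher gene in DCs, and the RPA genes have no call in T cells.

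Of the 3 subunits of replication protein A, which form 1 complex, 1 was called higher and 1 lower in DCs. Of all genes, 30.2% were higher and 41.8% lower there. No subunit was called in T cells, where each had 1000 or more counts. Of all genes with that many counts in the higher T cell library, 17.8% were called. Rpa1 had 687 and 382 counts in DCs (log2 -0.03 [-0.21, 0.16]), Rpa2 932 and 25, and Rpa3 1793 and 3564. Rpa2 was 21.1-fold lower and Rpa3 3.51-fold higher in treated DCs. In PBS and treated T cells the counts were 1128 and 1506 for Rpa1, 3561 and 4067 for Rpa2, and 2268 and 1917 for Rpa3, with log2 ratios between -0.26 and 0.40.

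Fanconi anemia genes, which act on interstrand crosslinks, had 0 counts in treated DCs for all 3 members, where the floor of 3 counts stands at 0.213 CPM. Fanci was at 0 in PBS DCs too. Of all genes with 20 to 99 counts in PBS DCs, 35.4% had 0 counts in treated DCs, and 25.5% of those with 100 to 299. Of all genes compared, 41.8% were called lower in DCs and 18.3% higher in T cells. Fanca had 120 counts in PBS DCs, at least 22.7-fold lower after treatment, and Fancd2 had 87, at least 16.4-fold lower. Fanca went from 0 counts in PBS T cells to 29 in treated T cells, at least 9.58-fold higher, while Fancd2 (45 and 54 counts) and Fanci (35 and 64) were not called there. The mismatch repair genes were barely detected in PBS DCs. Msh6, part of the mismatch sensor, had 4 and 48 counts in PBS and treated DCs, 21.2-fold higher with treatment (log2 4.40 [2.95, 6.34]), and 332 and 109 in T cells (log2 -1.62 [-1.95, -1.30]). Pms2, the nuclease subunit downstream, was at 0 in both DC libraries and had 482 and 110 counts in T cells (log2 -2.14 [-2.46, -1.84]).

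In nucleotide excision repair, the damage sensors and the later factors differed in opposite directions in DCs. Xpc, the global sensor of distorted helices, had 0 counts in PBS DCs, 165 in treated DCs, 431 in PBS T cells and 0 in treated T cells. It was at least 97.0-fold higher in treated DCs and at least 145-fold lower in treated T cells. Ddb2, the sensor of ultraviolet lesions and a known p53 target, had 0, 25, 281 and 614 counts in that order, at least 14.7-fold higher in treated DCs and 2.17-fold higher in treated T cells (log2 1.11 [0.91, 1.32]). Of the factors that act next, Xpa had 649 and 0 counts in DCs, at least 123-fold lower, and Ercc1, a subunit of the incision nuclease, had 965 and 94 (log2 -2.54 [-2.86, -2.23]). In T cells Xpa (1157 and 704 counts) and Ercc1 (898 and 1213 counts) were not called.

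In base excision and single-strand break repair, 14.3% of the 7 genes compared in DCs were higher and 57.1% lower, beside 30.2% and 41.8% of all genes. In T cells 0% of the 9 compared were higher and 33.3% lower, beside 18.3% and 25.4% of all genes. The group held the poly(ADP-ribose) polymerases. Parp2 had 3624 counts in PBS DCs, 404 in treated DCs, 2472 in PBS T cells and 2377 in treated T cells, 5.08-fold lower in treated DCs and not called in T cells (log2 -0.07 [-0.15, 0.01]). Parp1 had 1272, 225, 323 and 218 counts, lower in treated DCs (log2 -1.68 [-1.89, -1.47]) and uncalled in T cells. The glycosylase gene Ogg1 (61 and 0 counts) and the abasic-site nuclease gene Apex1 (62 and 0) were at least 11.5-fold and 11.7-fold lower in treated DCs, and neither was called in T cells. Lig1, the replicative ligase, was the 1 gene of the group called higher in treated DCs, with 107 and 164 counts (log2 1.44 [1.08, 1.80]). In T cells the 3 called genes were lower: the scaffold Xrcc1 with 967 and 381 counts (log2 -1.36 [-1.53, -1.18]), its partner Lig3 with 275 and 104 (log2 -1.42 [-1.76, -1.09]), and the uracil glycosylase Ung with 616 and 310, at log2 -1.004 on the edge of the call. Polb, the gap-filling polymerase, had 541, 492, 558 and 427 counts and was one of the 3 members called in neither cell type, with Rnf168 and Rpa1.

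The deposited tables give the span of each gene, on build GRCm39 per the submitters' processing notes. Of the genes described most fully, they place Atr (ENSMUSG00000032409) at chromosome 9, 95739650 to 95833834, Chek1 (ENSMUSG00000032113) at chromosome 9, 36619778 to 36638361, and H2ax (ENSMUSG00000049932) at chromosome 9, 44245991 to 44247374. They place Rpa3 (ENSMUSG00000012483) at chromosome 6, 8255936 to 8259173, Xpc (ENSMUSG00000030094) at chromosome 6, 91466287 to 91492870, Ddb2 (ENSMUSG00000002109) at chromosome 2, 91041917 to 91067327, Parp2 (ENSMUSG00000036023) at chromosome 14, 51045298 to 51058758 and Xrcc6 (ENSMUSG00000022471) at chromosome 15, 81872036 to 81924286.

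Opposite calls in the 2 cell types were made for 11 members. Those higher in treated DCs and lower in treated T cells were Atr, Rad50, Brca1, Msh6 and Xpc. The reverse held for Chek1, Trp53bp1, Xrcc3, Xrcc6, Dclre1c and Fanca. Of the 9388 genes compared in both cell types, 14.1% had opposite calls, 7.39% higher in treated DCs and 6.74% higher in treated T cells. The difference between cell types had no replicates and was not tested. Several of these genes overlap another gene on the genome, and the labels do not say whether counting used the strand. Reads of such pairs may therefore not be separable, as for Xrcc6 with Desi1, Dclre1c with Suv39h2, Xrcc3 with Klc1, Fanca with Zfp276, and Trp53bp1 with Tubgcp4. In all 20 members overlap a listed gene, 2 of them on the same strand. Beside the lower Ogg1 and Apex1, the overlapping genes Camk1 (6322 and 97 counts) and Pip4p1 (1564 and 155 counts) also had fewer counts in treated than in PBS DCs. Mre11a overlaps Ankrd49, which had 373 and 803 counts in PBS and treated DCs and 415 and 722 in PBS and treated T cells. Ddb2 overlaps Acp2, which had 543 and 166 counts in DCs and 75 and 325 in T cells in the same order.

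Setting T cells against DCs under the same treatment, 21 of 49 members were higher in T cells and 10 lower with PBS, beside 34.8% and 25.6% of all 11364 genes (60.3% in either direction). With treatment 27 of 44 were higher in T cells and 11 lower, beside 43.9% and 30.5% of 10606 genes (74.4% in either direction). The median log2 ratio of T cells over DCs was 0.42 for members and 0.17 for all genes with PBS, and 2.60 and 0.47 with treatment. In the treated comparison 14 of the 44 members and 1767 of the 10606 genes were at 0 in DCs. The ratios of T cells over DCs come from the same 4 libraries as the treated over PBS ratios. With PBS, Ung and Pms2 were at least 182-fold and 142-fold higher in T cells, being at 0 in DCs, and Msh6 was 73.4-fold higher. Chek1 (46.3-fold), Xrcc3 (6.57-fold) and Parp1 (4.45-fold) were lower in T cells than in DCs. With treatment, H2ax was 87.8-fold and Rpa2 81.8-fold higher in T cells, and Atr was 47.3-fold lower. The 30 cell cycle genes listed for comparison summed to 975 CPM in PBS DCs, 783 CPM in treated DCs, 1927 CPM in PBS T cells and 2408 CPM in treated T cells, the same order between cell types as the repair genes. The cell cycle sums are also scaled to library totals and not by TMM. The part of cell cycle activity was not tested.

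Promoters of the members were searched for the E2F binding words TTTCCCGC, TTTCGCGC, TTTGCCGC and TTTGGCGC on both strands, since E2F factors are known to drive replication and repair genes in dividing cells. RefSeq promoters of build GRCm38.p6, 250 bases before and 50 after the start, were matched for 42 of the 52 members, giving 47 promoters. A word was found in 10 of the 47 (21.3%), beside 2.26% of all 32851 promoters of that length. The median GC content was 60% for member promoters and 52.7% for all, which the share was not adjusted for. The 9 genes were Chek2, Topbp1, Mdc1, Brca2, Bard1, Rad51c, Xrcc6, Msh6 and Lig1. The 4 with the most counts in PBS T cells are printed 5′ to 3′ with the word, or its reverse complement, in capitals, to show where it lies. Topbp1 lies at chr9:103305077-103305376, Lig1 at chr7:13278576-13278875, Xrcc6 at chr15:82016119-82016418 and Msh6 at chr17:87974800-87975099, all on the plus strand.
Topbp1: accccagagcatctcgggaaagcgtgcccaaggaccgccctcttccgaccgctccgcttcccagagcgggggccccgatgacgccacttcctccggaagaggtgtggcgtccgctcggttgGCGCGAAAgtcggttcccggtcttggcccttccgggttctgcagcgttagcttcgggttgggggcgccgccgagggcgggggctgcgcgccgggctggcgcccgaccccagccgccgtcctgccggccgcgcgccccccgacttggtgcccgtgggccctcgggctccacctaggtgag
Lig1: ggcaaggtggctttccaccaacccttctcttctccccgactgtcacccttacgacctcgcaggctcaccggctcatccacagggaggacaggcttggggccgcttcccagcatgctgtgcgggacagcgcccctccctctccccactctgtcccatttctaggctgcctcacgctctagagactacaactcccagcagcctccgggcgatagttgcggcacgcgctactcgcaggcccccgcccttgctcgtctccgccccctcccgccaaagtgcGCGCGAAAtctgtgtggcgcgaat
Xrcc6: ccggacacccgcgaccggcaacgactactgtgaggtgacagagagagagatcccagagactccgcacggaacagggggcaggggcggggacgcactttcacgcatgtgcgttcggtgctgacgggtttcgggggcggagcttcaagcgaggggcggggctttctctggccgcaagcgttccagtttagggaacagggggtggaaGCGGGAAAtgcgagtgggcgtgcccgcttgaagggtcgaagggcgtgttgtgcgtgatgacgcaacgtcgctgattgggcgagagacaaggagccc
Msh6: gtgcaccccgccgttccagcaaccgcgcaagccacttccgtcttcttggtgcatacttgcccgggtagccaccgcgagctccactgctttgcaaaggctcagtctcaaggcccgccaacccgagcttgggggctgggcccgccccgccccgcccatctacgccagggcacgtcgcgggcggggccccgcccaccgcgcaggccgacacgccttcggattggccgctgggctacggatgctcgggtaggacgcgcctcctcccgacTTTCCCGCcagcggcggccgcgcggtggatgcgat
With treatment, Lig1 and Msh6 were higher in DCs and Topbp1 and Xrcc6 lower, while in T cells Xrcc6 was higher, Msh6 lower and the other two uncalled. The word stood upstream of the start in Topbp1 and Xrcc6 (its first base at -129 and -46) and downstream in Lig1 and Msh6 (26 and 15). Over all 9 genes with a word, 6 were higher in PBS T cells than in PBS DCs, none lower and 3 neither. Of the 31 members compared whose promoters held no word, 10 were higher, 8 lower and 13 neither, beside 34.8% higher and 25.6% lower of all genes. With treatment, 6 of 8 genes with a word were higher in T cells and 1 lower, and 18 of 28 without a word were higher and 7 lower, at median log2 ratios of 2.43 and 3.06. Of all genes, 43.9% were higher and 30.5% lower in treated T cells than in treated DCs. In the PBS libraries the medians were 2.22 with a word and 0.16 without, so the order of the medians differed between PBS and treatment. The difference between genes with and without a word was not tested. A p53 response element decamer was found in 1 member promoter, that of Fanca, or 2.13% of the 47, beside 8.36% of all. Ddb2, named above as a known p53 target, and Xpc were among the 10 members with no matched promoter, so neither was searched. A match describes letters and not binding.

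A second list of 112 other DNA repair genes gave the wider setting. In DCs 93 were compared, with 28 higher and 50 lower after treatment (30.1% and 53.8%, beside 30.2% and 41.8% of all genes) and a median log2 ratio of -1.48. In T cells 101 were compared, with 29 higher and 18 lower (28.7% and 17.8%, beside 18.3% and 25.4% of all genes) and a median of 0.16. Helq, a helicase that handles stalled forks, had 0 counts in both PBS libraries and 299 and 452 in treated DCs and T cells, at least 176-fold and 149-fold higher. The polymerase gene Poll (0 and 179 counts) and the end joining factor gene Aplf (0 and 162) were at least 105-fold and 95.3-fold higher in treated DCs. Lower in treated DCs were Tdp1, which frees trapped topoisomerase (886 and 0 counts, at least 167-fold), the recombination gene Rad51d (675 and 0, at least 128-fold) and the nuclease gene Mus81 (323 and 0, at least 61.0-fold). In T cells the junction nuclease gene Gen1 (11 and 292 counts) was 26.3-fold and the glycosylase gene Mutyh (62 and 655) 10.5-fold higher. Fancg, of the Fanconi core complex, was at least 234-fold lower (697 and 0), Ercc3, a helicase of nucleotide excision, was lower (470 and 19, log2 -4.64), and the mismatch gene Pms1 had 325 and 3 counts (log2 -6.77 [-9.06, -5.21]). These genes, like the members, included genes well detected in 1 library and at 0 in the other.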

How the data were processed

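The labels state that BGI extracted RNA, built mRNA libraries and sequenced them. Genome build GRCm39 is named in the submitters' processing notes, as are the tools DESeq2 1.24.0, HISAT2 2.0.4, R 3.3.1 and RSEM 1.2.12, without the role of each. The deposited counts are whole-number read counts per gene. The deposited FPKM equal those counts scaled by the listed gene length and the library total, within a relative difference of 2.04e-07, and the lengths are as the authors list them.

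Columns were matched to samples through the sample descriptions, whose numbers differ from those in 3 titles. Each group has 1 matched library. 2 further libraries (4 columns), whose column names share the letter of the PBS columns, match no sample description and were not used, so the spread between PBS libraries was not analysed here. Counts were scaled by TMM (edgeR 4.0.16, R 4.3.3), within each cell type for treated over PBS and over the 4 libraries for T cells over DCs. Ratios have Clopper-Pearson 95% intervals from the conditional binomial distribution, and a library at 0 was set to 3 counts, or 0.126 to 0.213 CPM. Genes without a symbol (51) were not compared. The calling rule was tested on simulated counts that held counting error only. That test could not show how the rule deals with variation between libraries. Other scalings, minimums and folds were tried. The members and lists were chosen with earlier results of these data known. Every called member could be named, with the most abundant uncalled one of each group, and 3 other repair genes per direction and cell type were named by their interval limit nearer no change.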

Additional observations from a re-analysis of the deposited data

Results flagged for a closer look

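For 11 repair genes the treated and PBS libraries differed in opposite directions in DCs and T cells, with 1 library on each side, and the difference between cell types was not tested. Opposite calls were made for 14.1% of the 9388 genes compared in both. The log2 ratios of treated over PBS in DCs and T cells were 5.39 and -1.93 for Atr, 1.63 and -2.68 for Rad50, and 4.40 and -1.62 for Msh6. For Trp53bp1 they were -1.82 and 1.45. Genes at 0 in 1 library have ratios set by the floor of 3 counts. On that scale Brca1 stood at 3.63 in DCs with a T cell ratio of -4.97, and Xpc at 6.60 in DCs and -7.18 in T cells. In the other direction Chek1 stood at -4.95 in DCs and 5.23 in T cells, Xrcc3 at -5.75 and 2.47, Xrcc6 at -7.02 and 1.505, Dclre1c at -6.71 and 1.45, and Fanca at -4.50 and 3.26.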

How the results depend on the processing

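Counts of called members moved with the count minimum and the fold. In DCs 9 were higher and 24 lower; requiring 20 counts in both libraries left 5 and 7 of 19 with a median log2 ratio of -0.47, and a minimum of 300 counts in either library, chosen after seeing the data, left 2 and 11 of 17. In T cells 10 were higher and 18 lower; a 4-fold threshold left 3 higher, 20 counts in both libraries left 9 lower, and 300 counts left 5 higher and 6 lower. The T cell median of 0.21 was -0.16 at a minimum of 100 counts in either library and 0.40 with 20 counts in both, and the mean over members was -0.86, opposite in sign to the median. Fewer members enter under the stricter minimums. Under the scalings tried, 32 of 33 DC calls and 27 of 28 T cell calls held, the exceptions being Rad51c and Ung. Lower calls in DCs numbered 25 on library totals, FPKM and DESeq2 size factors, where Atm (log2 -1.03, -1.03 and -1.002) passed the fold. Centring all genes on 0 shifted the DC median of all genes from -0.36 and gave 11 higher and 23 lower members in DCs. Of 759 single-gene values under 9 alternatives, 697 stayed within their interval and no called member changed sign, while the uncalled Rpa1 in DCs crossed 0 (-0.03, to 0.33 when centred) and Parp2 in T cells did so when centred. The count minimums change which genes enter and not their ratios, so those values stayed the same by construction. The FPKM ratios equal the ratios on library totals. The 697 is therefore no measure of how stable the ratios are. No paired analysis was possible because each group holds 1 library and no test was made.

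Limits are the single library per group, intervals that hold counting error only, and treated DCs with the fewest counts.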

Other observations

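Targets of p53, the transcription factor that damage kinases stabilize, were listed for comparison. Cdkn1a, the cell cycle inhibitor and a known p53 target, had 26427 counts in PBS DCs, 6152 in treated DCs, 1725 in PBS T cells and 10697 in treated T cells, with log2 ratios of treated over PBS of -1.28 in DCs and 2.62 in T cells. Mdm2, the ligase that degrades p53, had 2139, 1633, 691 and 1777 counts, with log2 ratios of 0.43 and 1.35. In T cells 6 of the 23 targets compared were higher and 2 lower after treatment, with a median log2 ratio of 0.58, beside 18.3% higher and 25.4% lower of all genes. The DC libraries gave 7 higher and 10 lower of 22 (31.8% and 45.5%), and their median log2 ratio was -0.46, near the 30.2%, 41.8% and -0.36 of all genes.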
